A study of Mus musculus with 36 samples.

Results

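The 4 transcripts described here encode the main structural proteins that fibroblasts deposit around themselves: the type I collagen chains Col1a1 and Col1a2, the type III collagen chain Col3a1, and fibronectin, Fn1. They were chosen by transcript identifier, as 4 of the 11037 transcripts listed in any ribosome footprint library and of the 17469 listed in any RNA library, and all 4 were listed in all 36 libraries. Col1a1 (ENSMUST00000001547) has 1454 codons with the stop codon, Col1a2 (ENSMUST00000031668) 1373, Col3a1 (ENSMUST00000087883) 1465 and Fn1 (ENSMUST00000055226) 2478. These lengths were also those that the deposited footprint values required. In RefSeq's annotation of the mouse build GRCm38.p6 the Col1a1 gene lies on chromosome 11 from 94936224 to 94953042 and Col1a2 on chromosome 6 from 4505618 to 4541543. Col3a1 lies on chromosome 1 from 45311538 to 45349706 and Fn1 on the same chromosome from 71585473 to 71653280.

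Type I collagen is a triple helix made from a pair of Col1a1 chains and a single Col1a2 chain, and it gives connective tissue its tensile strength. Col3a1 forms a homotrimer that is laid down with type I collagen in extensible tissues. Fibronectin is a large dimeric glycoprotein that binds integrins on the cell surface and serves as a scaffold on which collagen fibrils are assembled. All are secretory proteins, made by ribosomes on the endoplasmic reticulum, and all have long coding sequences, so that a ribosome takes long to travel from start to stop.

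The cells were mouse embryonic fibroblasts of the strain C57BL/6J, grown in high glucose DMEM with 10% fetal bovine serum. Sorbitol, a sugar alcohol, was added to raise the osmolarity of the medium. There were 9 conditions. Besides unstressed cells in the normal condition, cells were held for 2 h in medium of 500 mOsm or 600 mOsm. A short stress of 15 min and a long stress of 2 h were given in medium of 700 mOsm, and each was also followed by an early recovery of 15 min or a late recovery of 2 h. Ribo-seq, which counts the stretches of mRNA covered by ribosomes, and RNA-seq of cytoplasmic RNA were each made from 2 libraries in every condition. The labels do not say whether the 2 libraries came from separate cultures, nor how the cells were established or how recovery was made. The p-values therefore measure spread among these libraries alone, and that spread may be technical.

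Several facts of the series bear on every value below. The depth was 734083 to 9124787 listed reads in footprint libraries, lowest in those of the short and the long stress, and 6851958 to 55262396 in RNA libraries. The 2 footprint libraries of a condition differed by hardly more than sampling noise (chi-square per degree of freedom 1.0054 to 1.0855, where sampling alone gives 1). They were therefore counted as 1 sample, with no SD and no test, and the intervals given for footprint folds are 95% exact binomial intervals that cover counting error only. The 2 RNA libraries of a condition differed by more (3.44 to 47.08) and were kept as n = 2. The 4 RNA libraries labelled as late recovery from the short stress and as early recovery from the long stress were deposited under names that read as the other of these 2 groups, so their RNA values are given as labelled and enter no step and no translational efficiency. Values were divided by a factor per library that sets the typical abundant transcript equal ("scaled" RPKM and FPKM, both per length), so a change is relative to that transcript and says nothing of the total amount of translation. This scaling moved footprints by 0.56 and 0.47 on the log2 scale under the short and the long stress, by at most 0.12 in the other conditions, and RNA by at most 0.09. In bulk libraries fewer cells that express a gene and less RNA per cell cannot be told apart, and the transcript identifiers were not paired with gene names beyond these 4, so other matrix genes and markers of other cell types were not counted.

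Under the short stress all 4 transcripts carried more footprints than in any other condition, and under the long stress, at the same osmolarity, the 3 collagen chains carried fewer than in unstressed cells. Col1a1, which gives a pair of chains to each type I helix, had 368 and 362 scaled RPKM in the 2 unstressed libraries, 1529.7 and 1476 under the short stress, and 98.1 and 98.7 under the long stress. Its level was thus 4.12-fold higher in the first (95% counting interval 4.01 to 4.21) and 3.71-fold lower in the second (3.41 to 4.04). On the deposited values it was 2.79-fold higher and 5.16-fold lower, so the size of both folds depends on the scaling, which the intervals do not cover. The milder stresses lay between, with 281 and 278 at 500 mOsm. At 600 mOsm Col1a1 had 136 and 134. Over the stresses of 2 h the Col1a1 level therefore went down with each step of osmolarity, and the libraries of neighbouring conditions did not overlap anywhere in its order of 9 conditions.

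Col1a2, the partner chain, followed Col1a1 closely. It had 314 and 309 scaled RPKM in unstressed cells, then 239 and 235 in medium of 500 mOsm and 141 and 133 in that of 600 mOsm. The short stress gave 1218 and 1223 and the long stress 89.7 and 91.8. Against unstressed cells the level was 3.92-fold higher (3.82 to 4.03) and 3.43-fold lower (3.13 to 3.76), respectively. The deposited values gave 2.65-fold and 4.77-fold. In its order of conditions only 600 mOsm and late recovery from the long stress (145 and 141) overlapped.

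Col3a1 was far lower in footprints than the type I chains, at 7.79 and 7.23 scaled RPKM in unstressed cells from 268 and 259 reads. It had 65.8 and 58.1 under the short stress, 8.25-fold more than unstressed (7.16 to 9.37), or 5.58-fold on the deposited values. The long stress left 2.35 and 1.61, from only 6 and 5 reads. That is 3.80-fold less than unstressed, with a wide interval of 2.15 to 7.80 (5.27-fold on the deposited values). The lowest count listed in these 2 libraries was 5, so the value lies at the floor, which the interval does not take into account. At 500 mOsm Col3a1 had 2.8 and 3.0 and was 2.58-fold lower (2.12 to 3.15), a larger difference than the 1.31-fold of both type I chains there. At 600 mOsm it had 1.5 and 2.0, and these libraries overlapped with those of the long stress, so that the order of these 2 conditions was not detectable at this depth.

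Fibronectin differed from the collagens in that its footprints stayed at or above the unstressed level in most conditions. Fn1 had 65.3 and 66.2 scaled RPKM in unstressed cells and 848 and 876 under the short stress, 13.1-fold more (12.7 to 13.5). On the deposited values this was 8.87-fold. Under the long stress it had 86.4 and 85.6, 1.31-fold more than unstressed (1.22 to 1.40), but on the deposited values the ratio was 0.942, so this direction depends on the scaling. At 600 mOsm it had 29.4 and 29.3, the lowest of its 9 conditions and 2.24-fold below unstressed (2.11 to 2.38), and at 500 mOsm 83.2 and 83.9. From 600 mOsm to the long stress Fn1 was 2.93-fold higher (2.68 to 3.20; 1.94-fold on the deposited values), while Col1a1 was 1.38-fold lower (1.26 to 1.51; 2.08-fold on the deposited values).

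**Figure D1:**
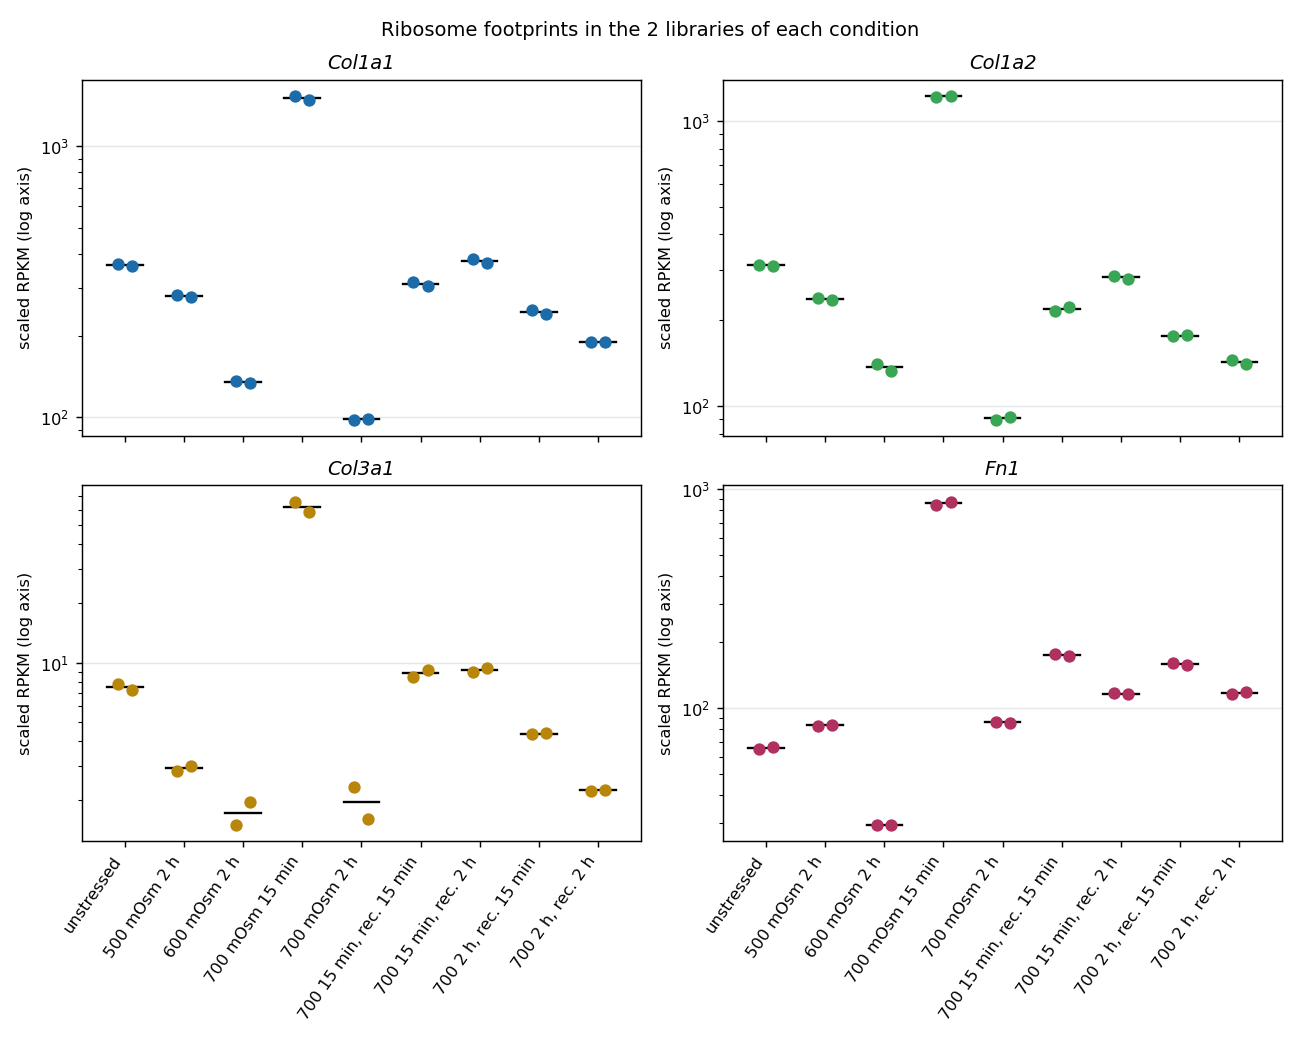
Scaled footprint RPKM (log axis) of each transcript in the 9 conditions; points are the 2 libraries, lines their mean. All 4 transcripts peak under the short stress, where Col1a1 reaches 1476 to 1529.7 and Fn1 848 to 876, and the collagens are lowest under the long stress or, for Col3a1, at 600 mOsm.

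Read against all 8849 transcripts tested, the 4 members counted as follows, where a difference is called from 2-fold up on log2(scaled RPKM + 1). At 500 mOsm 1 of the 4, Col3a1, was lower, against 16.8% of all transcripts, and 0 were higher, against 0.746%. At 600 mOsm all 4 were lower, against 35.4%. Under the short stress all 4 were higher (higher in 16.8% of all; 48.9% of all were lower), with a median log2 change of 2.46 beside -0.92 over all transcripts. Under the long stress the 3 collagens were lower, against 47.8%, and their values of -1.88, -1.77 and -1.53 stood beside a median of -0.91. The share called lower was thus nearly the same under the short and the long stress, while the collagens were higher in the first and lower in the second. In the footprint libraries of these 2 stresses no listed value had fewer than 5 reads, and a transcript not listed was set to 0. They listed 6193 to 7145 transcripts, against 10421 and 10458 in unstressed cells. How far depth and this floor set the shares and medians over all transcripts was not tested.

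The order of these conditions in the type I chains showed also in the joint share of the 4 in the library total. That total is what the deposited RPKM is divided by, and the share does not depend on the scaling. Together the 4 transcripts took 0.369% and 0.363% of that total in unstressed cells, 1.33% and 1.34% under the short stress, and 0.113% and 0.112% under the long stress. At 500 mOsm the shares were 0.325% and 0.321%, and at 600 mOsm 0.165% and 0.159%. Fn1 alone had another order, with 0.0525% and 0.0529% in unstressed cells and 0.0707% and 0.0711% at 500 mOsm. It took 0.0258% and 0.0254% at 600 mOsm and 0.0502% and 0.0490% under the long stress. In cytoplasmic RNA the 4 took 0.206% and 0.259% of the corresponding total in unstressed cells and 0.310% to 0.492% in all other libraries. Their joint RNA share was thus above that of unstressed cells also under the stresses in which their joint footprint share was lower.

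Long coding sequences as a class carried more footprints under the short stress, and these 4 stood high among transcripts of like length. The 463 tested transcripts of 1200 to 1800 codons had a median footprint log2 change of 0.86 under the short stress, with quartiles of 0.38 and 1.29. Among them Col3a1, at 2.89, was the 2nd highest, Col1a1, at 2.04, the 16th and Col1a2, at 1.97, the 21st. Fn1, at 3.69, was the highest of the 288 transcripts of over 1800 codons (median 1.77, quartiles 1.28 and 2.31) and the 4th highest of all 8849. Under the long stress the collagens were on the low side of their class, whose median was -0.99, with Col1a1 at place 384 of 463 from the top. Fn1, at 0.38, was then at place 54 of 288 in a class with a median of -0.59. These places are descriptions, since the 1 footprint sample of a condition allows no test of them.

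**Figure D2:**
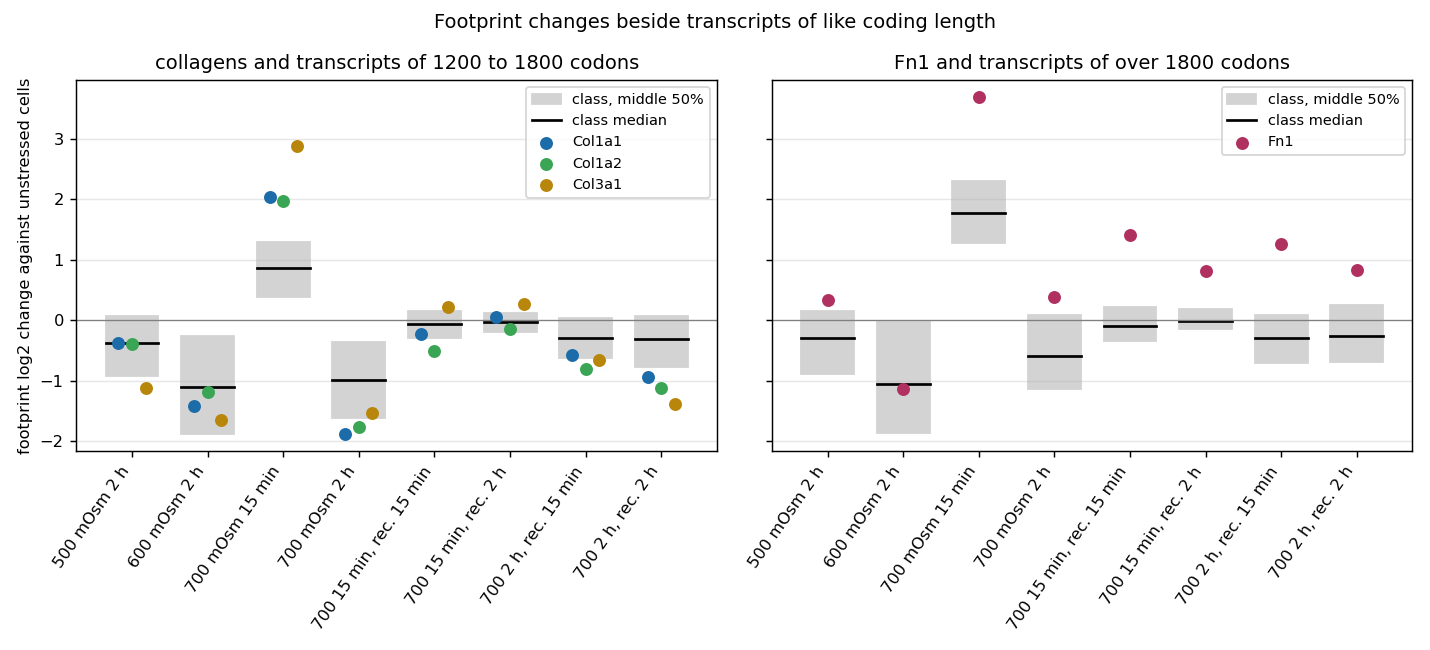
Footprint log2 changes against unstressed cells of the collagens (left) and Fn1 (right), with the median and middle 50% of the 463 transcripts of 1200 to 1800 codons and the 288 of over 1800 codons. Under the short stress every member lies above the upper quartile of its class (1.29 and 2.31), and Fn1 lies above the upper quartile in all conditions but 600 mOsm.

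Cytoplasmic RNA of most of these transcripts rose under stress. Differences in RNA were tested with limma in 1 fit of all 18 RNA libraries over 9275 transcripts, and "rose" or "fell" is used at a Benjamini-Hochberg adjusted p under 0.05. Fn1 RNA was 80.1 and 91.4 scaled FPKM in unstressed cells. It had 204 and 219 at 500 mOsm, 220.5 and 220.1 at 600 mOsm, and 178 and 194 under the long stress. These are rises of 1.29 (SE 0.08), 1.35 (SE 0.08) and 1.11 (SE 0.09) on the log2 scale, with limma adjusted p of 3.19e-08, 1.45e-08 and 1.07e-07. In the short stress, when its footprints were highest, Fn1 RNA was 102 and 107, a rise of 0.28 (SE 0.08, limma adjusted p = 0.00661). Of the 9 conditions only unstressed cells had less Fn1 RNA.

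Col1a1 RNA was 61.9 and 95.9 scaled FPKM in the 2 unstressed libraries, which were the farthest apart of its 9 pairs, and 114 to 189 in every other library. Its rise was 0.93 (SE 0.14) at 500 mOsm, 1.22 (SE 0.14) at 600 mOsm, 1.28 (SE 0.13) under the short stress and 0.84 (SE 0.15) under the long stress, on the log2 scale. Unstressed cells had the lowest precision weight of all groups in the fit, 0.32 against 0.54 to 2.23 in the others. Over the 8 comparisons with unstressed cells its change was 0.62 to 1.28, and it remained past the threshold, at 0.31 to 0.97, without unstressed replicate 1 and, at 0.93 to 1.59, without replicate 2.

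Col1a2 was the most abundant of the 4 in RNA, with 169.9 and 212 scaled FPKM in unstressed cells. At 600 mOsm it had 324 and 337, under the short stress 326 and 325, and under the long stress 246 and 243, rises of 0.80, 0.78 and 0.36 on the log2 scale. At 500 mOsm, with 250.4 and 267, it rose by 0.44 (limma adjusted p = 0.00414), and this call was lost in a fit of the compared groups only (adjusted p = 0.0734). The 2 unstressed libraries lay below those of each of these 4 stresses.

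Col3a1 RNA was 11.8 and 12.0 scaled FPKM in unstressed cells and rose at 600 mOsm, to 21.1 and 21.5 (log2 change 0.79, SE 0.10), and under the short stress, to 18.9 and 19.1 (0.63, SE 0.09). Its level was 12.8 and 11.9 at 500 mOsm and 12.5 and 12.8 under the long stress, with log2 changes of 0.04 and 0.07 and limma adjusted p of 0.901 and 0.584. At 500 mOsm its footprints were therefore 2.58-fold lower beside an RNA level that overlapped with that of unstressed cells.

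**Figure D3:**
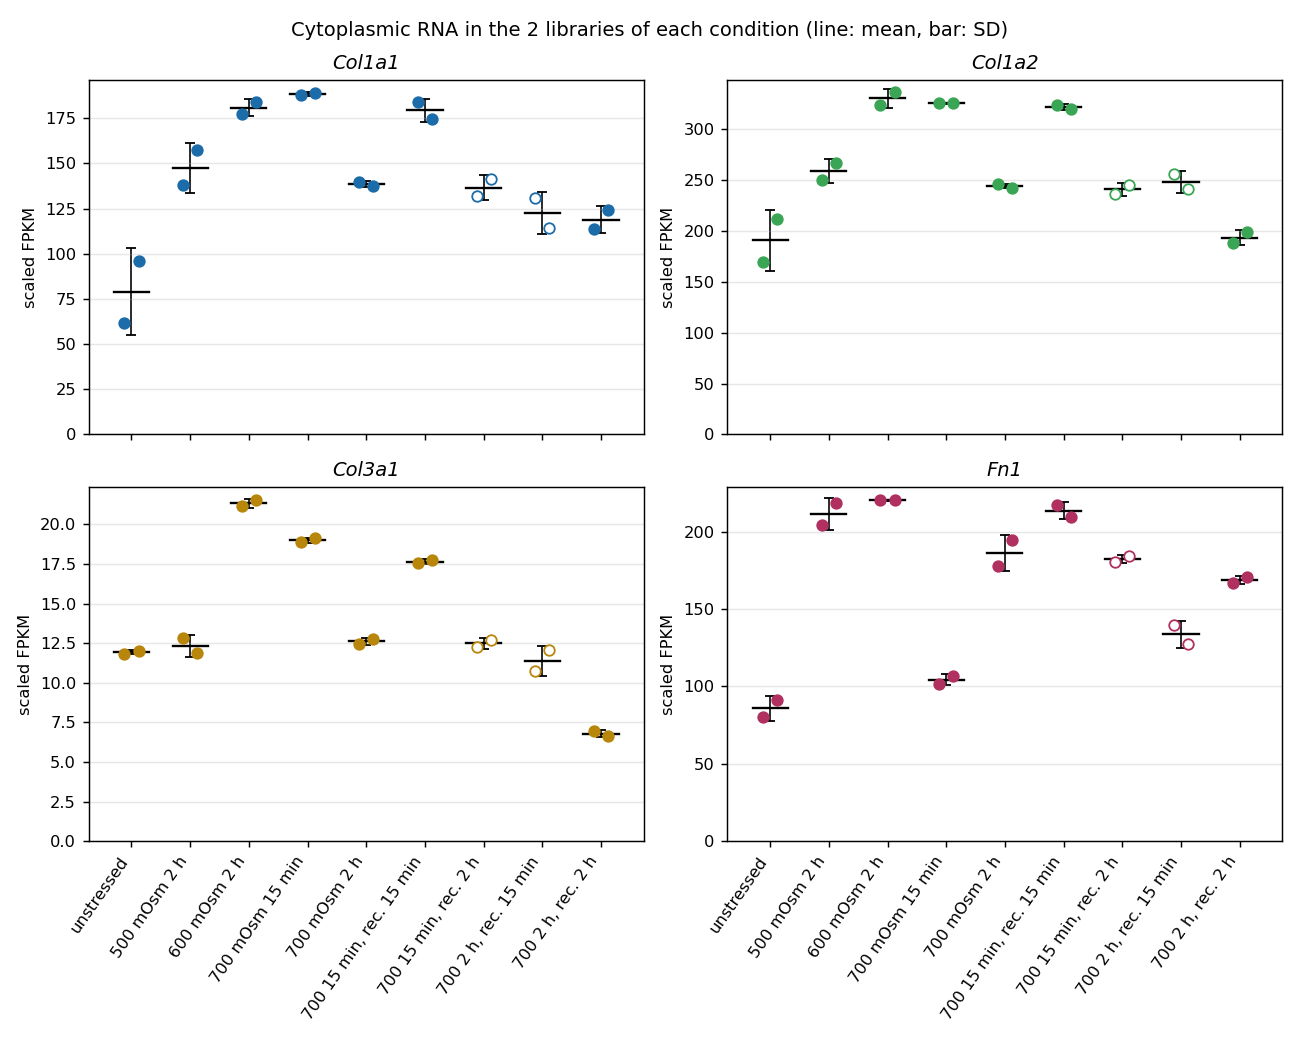
Scaled RNA FPKM of each transcript in the 9 conditions; points are the 2 libraries, lines the mean and bars the SD (n = 2), and hollow points mark the 2 groups whose deposited names are crossed. Fn1 under the short stress (102 and 107) sits next to unstressed cells, while the collagens are at or near their highest there.

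Counted over the members, RNA rose in 3 of 4 at 500 mOsm (1.55% of all transcripts rose), in 4 of 4 at 600 mOsm (3.87%), in 4 of 4 under the short stress (19.3%) and in 3 of 4 under the long stress (18.7%). The members' median log2 changes were 0.69, 1.01, 0.70 and 0.60, beside medians over all transcripts of -0.01, 0.00, -0.06 and -0.05. Fn1 had the 25th, 9th and 13th largest RNA change of 9275 transcripts at 500 mOsm, at 600 mOsm and under the long stress. For Col1a1 the corresponding places were the 48th, 14th and 65th. Col1a2 was at places 208, 45 and 1654 in the same order, and Col3a1 at places 3446, 49 and 3742. Under the short stress the places were 15 for Col1a1, 178 for Col1a2, 405 for Col3a1 and 1848 for Fn1. All 8 comparisons share the unstressed libraries, so these values are not independent of each other.

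Between the short and the long stress the RNA of the collagens and of Fn1 went opposite ways. Col1a1 fell by 0.44 (SE 0.11, limma adjusted p = 0.00285), Col1a2 fell by 0.41 (SE 0.06, 6.68e-05) and Col3a1 fell by 0.55 (SE 0.08, 2.39e-05), on the log2 scale. Fn1 rose by 0.83 (SE 0.06, limma adjusted p = 6.51e-08), the 57th largest rise of 9275. In this comparison 28.6% of all transcripts fell and 22.4% rose. Footprints of all 4 were lower under the long than under the short stress (16.2% of all transcripts were). The difference was 15.3-fold for Col1a1 (14.0 to 16.6), 13.4-fold for Col1a2 (12.2 to 14.8) and 10.0-fold for Fn1 (9.35 to 10.8). For Col3a1 it was 31.4-fold (17.5 to 64.0), from 6 and 5 reads under the long stress, at the floor of the listed counts. For Fn1, the footprint level thus went down 10.0-fold while its RNA rose.

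From 500 to 600 mOsm the RNA of the 3 collagens rose, against 6.38% of all transcripts, by 0.29 for Col1a1, 0.35 for Col1a2 and 0.74 for Col3a1. The Col1a1 call was narrow (limma adjusted p = 0.0477) and was lost without the filter on low values (0.20), with equal weights (0.17), and without 500 mOsm replicate 1 (0.28) or either 600 mOsm replicate (0.13 and 0.21). Fn1 changed by 0.06 (adjusted p = 0.51). Footprints of Col1a1 and Fn1 were at least 2-fold lower over this step, against 19.6% of all transcripts. From 600 mOsm to the long stress RNA of all 4 fell, by 0.24 for Fn1 to 0.71 for Col3a1, against 33% of all transcripts. The fall of Col1a1, by 0.38 (adjusted p = 0.00962), was lost without the filter (0.052) and without 600 mOsm replicate 2 (0.051). Footprints of Fn1 alone passed 2-fold in this step, upwards, against 15% of all transcripts, and this depends on the scaling. On the deposited values Fn1, at 0.93 on the log2 scale, did not pass, and Col1a1, at -1.05, and Col1a2, at -1.18, passed as lower.

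Translational efficiency, the footprint level per RNA level, was higher than in unstressed cells for all 4 transcripts under the short stress and lower for all 4 under the long stress. Fn1 had 0.767 scaled RPKM per scaled FPKM in unstressed cells, below the median of 1.61 over 8446 transcripts and at place 7205 from the top. The short stress took it to 8.26, at place 444, when the median was 0.924. The long stress left 0.462, at place 5620, when the median was 0.943. Of these 3 conditions only the short stress put Fn1 above the median. Under the long stress its log2 change in efficiency, -0.73, was near the median change of all transcripts, -0.68, at place 4322 from the top. The collagens were at -2.72 to -1.60. The smallest of these changes, -1.60, is that of Col3a1, from 6 and 5 reads at the floor, and the added 1 makes it too small.

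Col1a1 had the highest ratio of the 4 in unstressed cells, 4.63, and went to 7.97 under the short and 0.710 under the long stress. Col1a2 had 1.63, 3.75 and 0.372 in the same order. The ratio of Col3a1 was 0.629 in unstressed cells, 3.26 under the short and 0.157 under the long stress. On the log2 scale the efficiency changes under the short stress were 0.76 for Col1a1, 1.19 for Col1a2, 2.26 for Col3a1 and 3.41 for Fn1, the last being the 4th largest of 8446. These have no error estimate, since the footprint side is 1 sample. They and the unstressed ratios also rest on the 2 unstressed RNA libraries, which for Col1a1 had 61.9 and 95.9 scaled FPKM.

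At 600 mOsm all 4 were at least 2-fold lower in efficiency, with log2 changes of -2.65, -1.98, -2.43 and -2.49 for Col1a1, Col1a2, Col3a1 and Fn1, against 35.3% of all transcripts. At 500 mOsm 2 of 4 were, Col1a1 at -1.31 and Col3a1 at -1.16, against 16.9%. Under the short stress 3 of 4 were at least 2-fold higher, against 14.6%, and under the long stress the 3 collagens were lower, against 42.2%. On the deposited values Col1a2, at 0.69, did not pass under the short stress, Col1a1 was at 0.26, and Fn1, at -1.10, passed as lower under the long stress. At 500 and 600 mOsm RNA of most members was thus higher and their efficiency lower than in unstressed cells. From 500 to 600 mOsm all 4 were at least 2-fold lower in efficiency, against 17.2%, and from 600 mOsm to the long stress Fn1 was higher, by 1.76 on the log2 scale, against 14.6%. From the short to the long stress all 4 were lower, against 14.7%, with Fn1 at -4.14 the 18th lowest of 8446.

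**Figure D4:**
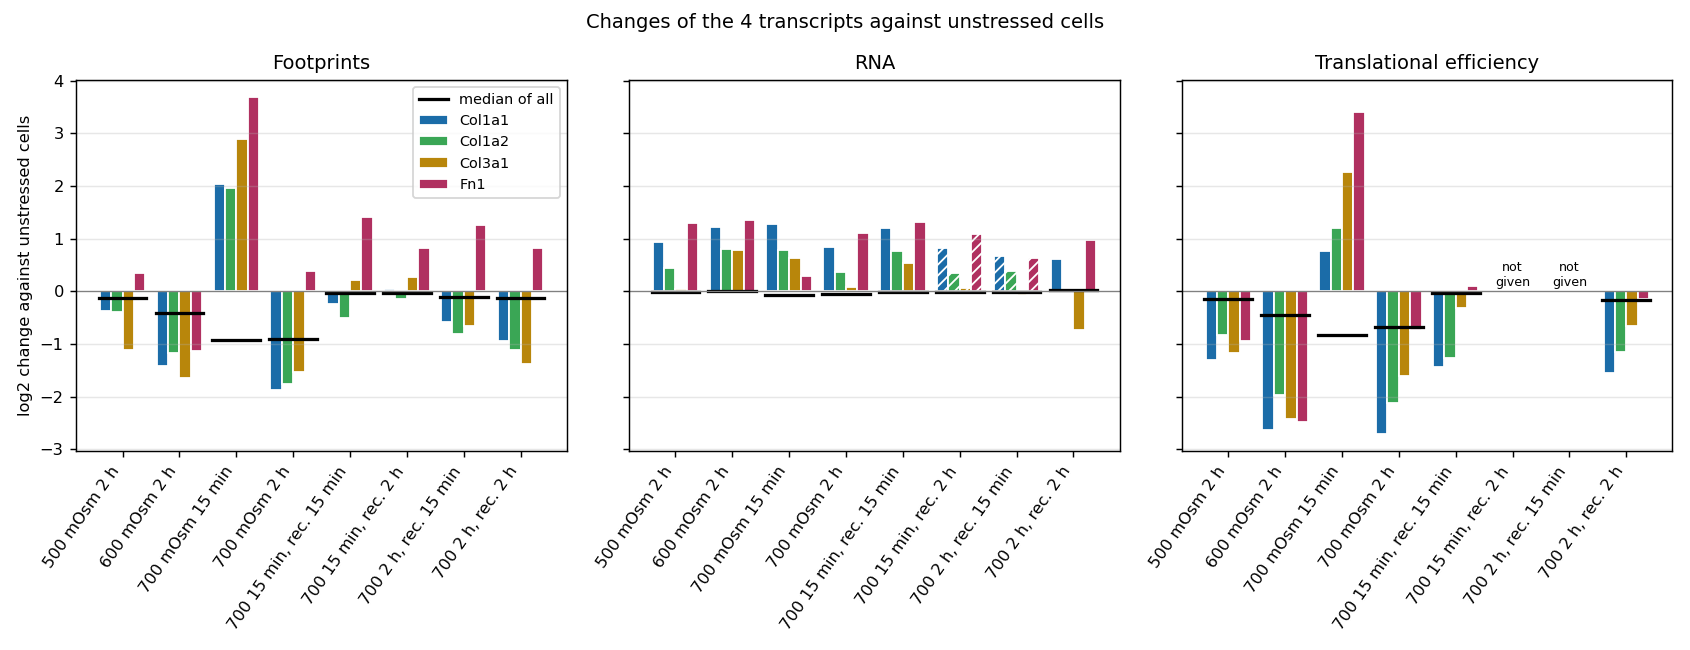
Log2 changes against unstressed cells in footprints, RNA and translational efficiency; bars are the 4 transcripts, black lines the median of all transcripts tested, and hatched bars the RNA of the 2 groups with crossed names, for which no efficiency is given. Under the short stress all 4 bars are positive in all 3 panels. Under the long stress the efficiency of the collagens is between -2.72 and -1.60, the latter for Col3a1, from 6 and 5 footprint reads.

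In early recovery from the short stress the footprints of the 4 were below their peak, and those of the collagens were within 2-fold of the unstressed level. Col1a1 had 317 and 304 scaled RPKM, Col1a2 216 and 223, and Col3a1 8.49 and 9.23, which are 0.850, 0.705 and 1.18 times the unstressed level. Fn1 remained higher, at 177 and 173, 2.67 times unstressed (2.59 to 2.74), and was the only member at least 2-fold different, against 0.644% of all transcripts that were higher. It had the 24th largest increase of 8849. Compared with the short stress itself, all 4 were lower (17.1% of all were), by 4.84-fold for Col1a1, 5.56-fold for Col1a2, 7.0-fold for Col3a1 and 4.91-fold for Fn1. The deposited values gave 3.22-fold, 3.69-fold, 4.64-fold and 3.26-fold.

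RNA in this recovery group rose above unstressed in all 4 (4.39% of all transcripts rose). Col1a1 had 184 and 175 scaled FPKM, Col1a2 324 and 320.2, Col3a1 17.6 and 17.7, and Fn1 217 and 209. Against the short stress Fn1 rose by 1.03 (SE 0.04, limma adjusted p = 3.03e-11; 40.9% of all rose), while the collagens had log2 changes of -0.07, -0.02 and -0.10 that did not pass the test (adjusted p of 0.379, 0.741 and 0.0868). Against unstressed cells the efficiency of Col1a1 and Col1a2 was lower by 1.44 and 1.26 on the log2 scale, the 13th and 18th lowest of 8446 transcripts (0.521% of all were at least 2-fold lower). Their RNA changed more than their footprints, by 1.21 and 0.76 beside -0.23 and -0.50. These values therefore lean on the unstressed RNA libraries, the group of lowest precision weight. For Fn1 and Col3a1 the efficiency change was 0.09 and -0.32. Against the short stress all 4 were lower in efficiency, against 15.5% of all transcripts, and Fn1, at -3.32, was the 10th lowest.

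In late recovery from the short stress Col1a1 had 383 and 372 scaled RPKM, Col1a2 285 and 279.7, and Col3a1 8.99 and 9.44. None of the collagens was 2-fold different from unstressed, and neither was Fn1, at 117 and 116, which was 1.77 times the unstressed level (1.72 to 1.82). In this comparison 0.689% of all were higher by that much and 0.271% lower. In the RNA libraries labelled with this condition Col1a1, Col1a2 and Fn1 rose by 0.82, 0.34 and 1.08 (4.92% of all rose), and the call of Col1a2 was lost in a fit of the compared groups only (adjusted p = 0.0813).

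Recovery from the long stress left the collagens lower and Fn1 higher in footprints than in unstressed cells. In the early recovery Col1a1 had 249 and 239.8 scaled RPKM, Col1a2 176 and 177, Col3a1 4.34 and 4.40, and Fn1 161 and 158. Fn1 was 2.42 times the unstressed level (2.34 to 2.50) and the only member past 2-fold, against 1.79% of all transcripts that were higher. In the late recovery the collagens were further down, with Col1a1 at 189.8 and 189.9, Col1a2 at 145 and 141, and Col3a1 at 2.24 and 2.27. Of the 4, Col1a2 and Col3a1 were then at least 2-fold lower, against 7.21% of all, by 2.18-fold (2.12 to 2.25) and 3.33-fold (2.67 to 4.17), and Col1a1 was 1.92-fold lower (1.88 to 1.97). Col3a1 was the 12th lowest of the 463 transcripts of its length class. Fn1, at 116 and 119, was 1.79 times the unstressed level (1.73 to 1.84). Efficiency was at least 2-fold lower than in unstressed cells for Col1a1, at -1.56 on the log2 scale, and Col1a2, at -1.15, against 7.67% of all transcripts.

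Set against the long stress itself, 1 of the 4 footprint levels was called 2-fold different in the early recovery. It was that of Col1a1, at 2.48-fold higher (2.28 to 2.71), where 42.3% of all transcripts were higher. Col3a1 was 2.21-fold higher as a ratio of scaled means, with a wide interval of 1.21 to 4.65. It was not called, because its change on log2(scaled RPKM + 1) was 0.86. In the late recovery 0 of 4 passed, where 43.1% of all were higher and 14.7% lower. On the deposited values these counts were 4 and 2. In efficiency 1 of 4 passed in the late recovery, Col1a1 at 1.16 on the log2 scale, against 36.1% of all, and 3 did on the deposited values. The step from early to late recovery took none of the 4 footprint levels past 2-fold after the short stress (0.633% of all were higher and 0.441% lower) or after the long stress (4.72% and 2.92%). After the long stress all 4 were lower in late than in early recovery, by 1.24-fold for Col1a2 to 1.94-fold for Col3a1.

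RNA in late recovery from the long stress differed between the members. Col3a1 fell below unstressed cells, to 6.96 and 6.63 scaled FPKM (log2 change -0.73, SE 0.09, limma adjusted p = 2.5e-05), the 12th lowest change of 9275, where 8.28% of all fell. Fn1 had 167 and 171 and rose by 0.97 (SE 0.08), and Col1a1 had 114 and 124 and rose by 0.62 (SE 0.13), where 13.9% of all rose. Col1a2 had 188 and 199, a change of 0.03 (adjusted p = 0.849) that was 0.19 and passed the test without unstressed replicate 2 (adjusted p = 0.00617). Against the long stress, Col1a2 fell by 0.33 and Col3a1 fell by 0.80 (24.1% of all fell), and in voom and in a fit of the compared groups only all 4 fell. Fn1, at -0.14 (adjusted p = 0.0542), passed without long stress replicate 1, at -0.20 (adjusted p = 0.00766). In the RNA libraries labelled as early recovery from the long stress, Col1a1, Col1a2 and Fn1 rose by 0.66, 0.39 and 0.64 (8.09% of all rose).

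The ratio between the type I collagen chains can be read within a library, free of the scaling. In footprints Col1a1 stood to Col1a2 at 1.17 in both unstressed libraries, 1.18 in both at 500 mOsm, and 0.969 and 1.01 at 600 mOsm. It was 1.26 and 1.21 under the short stress and 1.09 and 1.07 under the long stress. In the 8 recovery libraries it was 1.31 to 1.47, above that of every stress and unstressed library. In RNA the FPKM ratio was 0.364 and 0.452 in unstressed cells and 0.474 to 0.625 in all other libraries. Col1a2 thus had more RNA per length than Col1a1 in all 18 RNA libraries, while Col1a1 had more footprints per length in 17 of 18 footprint libraries.

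**Figure D5:**
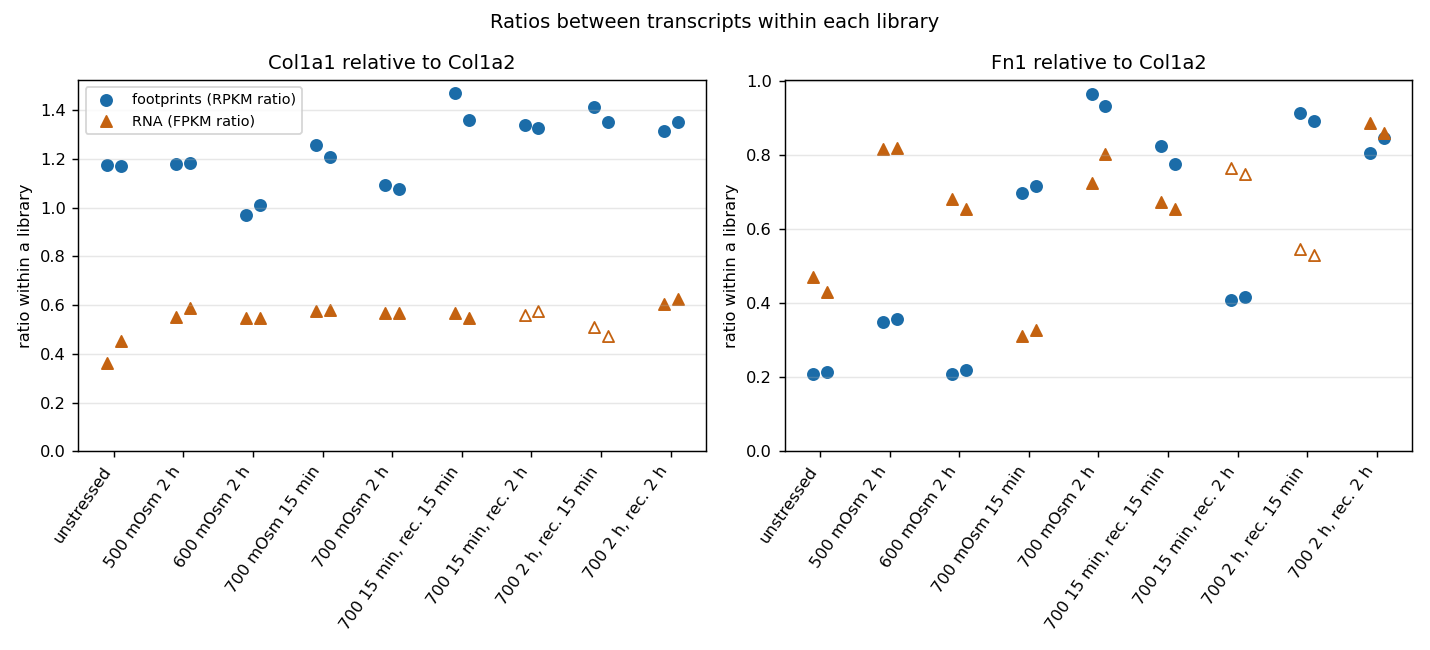
Ratio of Col1a1 to Col1a2 (left) and of Fn1 to Col1a2 (right) within each library, in footprints (circles, RPKM) and RNA (triangles, FPKM; hollow where the deposited names are crossed). The footprint ratio of the type I chains is highest in the recovery libraries (1.31 to 1.47), and the footprint ratio of Fn1 to Col1a2 goes from 0.208 and 0.214 in unstressed cells to 0.964 and 0.932 under the long stress.

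Fn1 moved away from Col1a2 in footprints far more than the type I chains moved from each other. The footprint ratio of Fn1 to Col1a2 was 0.208 and 0.214 in unstressed cells, 0.348 and 0.357 at 500 mOsm, and 0.209 and 0.220 at 600 mOsm. It was 0.697 and 0.716 under the short and 0.964 and 0.932 under the long stress. It was 0.776 to 0.912 in the recovery libraries except those of late recovery from the short stress, with 0.409 and 0.416. The RNA ratio did not follow this order: it was lowest under the short stress, with 0.312 and 0.328, and 0.471 and 0.431 in unstressed cells. In all other RNA libraries it was above unstressed, at 0.529 to 0.886. At 500 mOsm it was 0.815 and 0.818, under the long stress 0.723 and 0.802, and in late recovery from the long stress 0.886 and 0.858.

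Across the 8 footprint changes against unstressed cells, Col1a1 and Col1a2 were the most alike pair, with a Euclidean distance of 0.52 on the log2 scale. Col3a1 lay at 1.37 from Col1a1 and 1.55 from Col1a2, and Fn1 at 4.13 to 4.56 from the collagens. Of the 6737 transcripts with at least 100 reads in each unstressed footprint library, ENSMUST00000002073 (1810 codons) and ENSMUST00000112533 (1724 codons) lay nearest to the mean pattern of the 4, both at a distance of 0.73. Their footprint log2 changes were 2.39 and 2.45 under the short and -1.13 and -1.51 under the long stress. The first of them had only 2.68 scaled RPKM in unstressed cells, against 17.4 for the second. Its level under the long stress therefore lay near the floor of the listed counts, and its change there is not well measured. Fn1 itself lay at 3.20 from that mean, at place 1051, so the mean describes the collagens better than fibronectin. The 8 changes share the unstressed libraries, and these distances are descriptions.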

How the data were processed

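Ribosome footprints were deposited by the authors as RPKM and cytoplasmic RNA as FPKM, both 1 value per transcript and library, in 36 libraries. Footprints were 28 to 30 nt, cut from RNase I digests of the pooled gradient fractions from the 80S peak down, with cycloheximide in the lysis buffer, per the labels' protocols. Per the submitters' processing notes, GRCm38 was the build, and STAR, Bowtie and cutadapt are listed with no version or role. For annotation and counting, the method is not given in the sources used here. Members and lists were chosen with earlier results of these data known. The named transcripts are the 4 members and the 2 nearest to their mean pattern.

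Reads were recovered by solving each library's total and each transcript's length from the RPKM and FPKM values that the authors deposited. The result was whole reads for 100% of values (tolerance 1e-09, relative), which the solving makes likely by itself. The scaling factor of a library is the median of its ratios to the geometric mean of 4619 (footprints) or 5705 (RNA) abundant transcripts. Transcripts not listed in a library were set to 0 there. A filter at a scaled mean of 2 left 8849 transcripts for footprints, 9275 for RNA and 8446 for both, with all 4 members. Changes were taken on log2(scaled value + 1), so those of low transcripts come out too small, and folds are ratios of scaled means with no pseudocount. RNA was tested by limma 3.58.1 (R 4.3.3), in 1 fit of 18 libraries with group precision weights and a mean-variance trend. Tests were two-sided, with p-values adjusted by Benjamini and Hochberg over all transcripts and a threshold of 0.05. The alternatives were other scaling, pseudocount, filter, weights, samples, voom, the replicate number as a block, and leaving out each replicate. A fit without the 4 RNA libraries with crossed names was added after seeing the data. Reads carry no molecular identifiers, so intervals cover counting error only. No sequence is printed, because the proteins and coding sequences of these transcripts were not used here.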

Additional observations from a re-analysis of the deposited data

Results flagged for a closer look

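RNA of the collagens and of Fn1 went opposite ways between 15 min and 2 h at 700 mOsm, by a test of the difference between the 2 times. The log2 change from 15 min to 2 h was -0.44 for Col1a1, -0.41 for Col1a2, -0.55 for Col3a1 and 0.83 for Fn1 (limma adjusted p of 0.00285, 6.68e-05, 2.39e-05 and 6.51e-08; n = 2 libraries at each time).

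Footprints of the collagens were above the unstressed level in both libraries after 15 min at 700 mOsm and below it in both after 2 h. The log2 differences between the 2 times were -3.92 for Col1a1, -3.73 for Col1a2 and -4.41 for Col3a1. With the 2 libraries of a condition counted as 1 sample the difference was not tested. Counted as 2 libraries a condition, limma gave adjusted p of 3.18e-10, 3.40e-10 and 2.22e-06, which rest on a spread hardly above sampling noise.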

How the results depend on the processing

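Footprint depth limits Col3a1 most, which had 6 and 5 reads under the long stress, where 5 was the lowest count listed. The intervals of footprint folds cover counting error only and take no account of this floor. All 44 RNA changes refitted without the 4 RNA libraries with crossed names kept their side of the threshold. Each change is a difference of group means, so leaving out other groups could alter only the pooled spread and not the direction. Correlations between conditions of the differences between replicates 1 and 2 were -0.088 to 0.070 in footprints. In RNA they were -0.307 to 0.308, with a median of 0.007. The footprint libraries of a condition differed by hardly more than sampling noise, so a pairing by replicate number could not show there. Whether the replicate numbers pair the RNA libraries was not settled by this. With the replicate number as a block in the RNA fit, 1 member call changed: the fall of Fn1 from the long stress to late recovery passed (limma adjusted p = 0.0498, from 0.0542). Footprints fitted by limma as 2 libraries a condition, with or without that replicate block, call by p and not by fold. Against unstressed cells 4 of 4 then passed at 500 mOsm (1 at 2-fold), 3 in both recoveries from the short stress (1 early, 0 late), and 4 in both from the long stress (1 early, 2 late). Between conditions 4 passed from 500 to 600 mOsm (2), 3 from 600 mOsm to the long stress (1), 4 from the long stress to early recovery (1), 3 to late recovery (0), and from early to late recovery 3 after the short stress and 4 after the long one (0 each). As deposited, the 2-fold counts were 2 from 600 mOsm to the long stress (Col1a1 and Col1a2, both lower, in place of Fn1, higher), 4 from there to early recovery and 2 to late recovery. With a pseudocount of 0.25 the count to early recovery was 2, and leaving out single replicates gave 1 to 2, the latter without replicate 1 of the long stress. In efficiency, the count from the long stress to late recovery was 3 as deposited and 2 with a pseudocount of 0.25 (1 in the report). As deposited, efficiency counts against unstressed cells were 2 under the short stress (3) and 4 under the long stress (3). For RNA, voom called 2 members from the short stress to early recovery (1), and voom and a fit of the compared groups only each called 4 from the long stress to late recovery (2). The directions that turned in the values reported were these log2 changes. Fn1 footprints under the long stress were at -0.085 as deposited (0.38). Col3a1 footprints from 600 mOsm to the long stress were at -0.26 as deposited and at -0.061 to 0.30 without single replicates (0.12). Col3a1 from early to late recovery after the short stress was at -0.0059 as deposited and at -0.0018 to 0.11 without single replicates (0.05). From the long stress to late recovery it was at -0.039 to 0.32 without single replicates (0.14). In RNA, changes that had not passed turned as deposited for Col3a1 under the long stress (-0.011, from 0.07), Col1a2 in late recovery from the long stress (-0.0084, from 0.03) and Col1a2 from the short stress to early recovery (0.037, from -0.02). Without single replicates Col1a2 in late recovery from the long stress was at -0.13 to 0.19, and Col3a1 at 500 mOsm was at -0.0080 without 500 mOsm replicate 1 (0.04). The cause was not tested.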
